A study of Mus musculus with 6 samples.

Results

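Collagens are triple-helical matrix proteins, and each helix is wound from 3 polypeptides called alpha chains, each kind encoded by its own Col gene. All rows of the mouse count table whose symbol names a collagen alpha chain were taken, which gave 44 genes of 24516 listed. They were described in 6 poly(A) RNA libraries of one cell line, by the class of collagen each chain belongs to. All 44 were found in the gene table of GRCm38.p6 (the assembly also called mm10), which gives the coordinates below. Of the 44 genes, 20 reached 1 CPM (counts per 1000000 counts of the library) in all 6 libraries, and these carry the values below. They were 7 of 11 fibrillar chains, 3 of 6 basement membrane chains, 2 of 3 network chains, 4 of 9 FACIT chains and 4 of 15 chains of other types. Among all listed genes, 11288 passed that minimum.

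The cells were iMGT-Myh6-eGFP-MEF, a mouse embryonic fibroblast line in which doxycycline switches on the cardiac transcription factors Mef2c, Gata4 and Tbx5 (MGT) and in which an eGFP reporter is tied to Myh6, a heart muscle myosin gene. The groups differ in the siRNA the cells received: a control (siControl), one directed at Junb (a subunit of the transcription factor AP-1), or one directed at H1f0 (a linker histone), with 2 libraries in each group. All 3 groups, controls included, received doxycycline at 1 ug/mL on the day after transfection, so no group here shows fibroblasts without the induction. The labels place the harvest at day 1 after induction and describe freezing of the cells before RNA was made, while the series text speaks of day 3 and of sorting the GFP+ cells. This difference is the same for all 3 groups. The replicates are labelled as biological, and nothing else in the labels says that they came from separate cultures, so the p-values measure the spread between these libraries of 1 line.

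Fibrillar collagens such as types I, III and V form the banded fibres of connective tissue, and types V and XI are built into those fibres and limit their width. Type IV chains assemble into the sheet of basement membranes, types VIII and X form shorter-chained networks, and FACIT collagens (fibril-associated collagens with interrupted triple helices) sit on the surface of fibres. Fibroblasts are the main source of fibrillar collagen in most tissues, and loss of matrix expression is one of the changes followed when fibroblasts are turned into heart muscle-like cells.

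Library totals ran from 48690447 to 85979630 counts. The siRNA targets followed the labels: Junb was at 37.6 ± 2.78 CPM (SD, n = 2) in siControl, 9.59 ± 1.22 in siJunb and 31.0 ± 0.899 in siH1f0. H1f0 was at 774 ± 47.2 CPM in siControl, 646 ± 10.1 in siJunb and 53.8 ± 2.13 in siH1f0. Besides its fall with its own siRNA, H1f0 was called lower with the Junb siRNA in edgeR (log2 -0.23 ± 0.05, adjusted p = 0.021). Junb did not pass with the H1f0 siRNA (-0.29 ± 0.08, adjusted p = 0.0778). Whether the lower H1f0 has a part in the collagen values of siJunb was not tested. Fibroblast markers fitted the labelled cell type in part: 6 of 7 listed markers were above 1 CPM in all libraries, with a summed level of 3224 to 3440 CPM, while Thy1 was at or near 0. Pdgfra was higher in siJunb (log2 0.27, adjusted p = 0.0442) and Fap in siH1f0 (1.10, adjusted p = 0.0136), and the leukocyte marker Csf1r was higher in siJunb (1.39, adjusted p = 0.0276) at 0.213 to 0.678 CPM over the libraries, with Ptprc at 0. Between siH1f0 and siJunb, Fap (1.08, adjusted p = 0.00510) and Myh6 (0.69, adjusted p = 0.00266) were higher, and Vim (-0.18, adjusted p = 0.0276), Pdgfra (-0.31, adjusted p = 0.0172), Pdgfrb (-0.20, adjusted p = 0.0222), Csf1r (-1.47, adjusted p = 0.0176) and the cartilage gene Comp (-1.67, adjusted p = 0.0479) were lower. The part of these markers in the collagen values was not tested. Summed markers of endothelial cells (0.0930 to 0.202 CPM) and epithelial cells (0 to 0.0337 CPM), which also make type IV collagen, were near 0 in all 6 libraries. Cartilage and bone markers summed to 6.34 to 8.69 CPM, nearly all of it Sox9, with Acan, Matn1 and Sp7 at or near 0 and Ibsp at 0. In bulk RNA a smaller share of expressing cells and less RNA per cell cannot be told apart. The 2 siControl libraries stood further apart than the other pairs, with a median absolute log2 ratio of the 20 collagen genes of 0.14, against 0.05 in siJunb and 0.05 in siH1f0.

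Collagen transcripts took 0.573% and 0.614% of all counts in the siControl libraries, 0.638% and 0.623% in siJunb, and 0.586% and 0.576% in siH1f0. A few chains carried most of this. Per kilobase of transcript, which allows levels of different genes to be compared, Col1a1, Col5a2, Col4a2, Col1a2 and Col4a1 together held 82.4% ± 0.744 (SD, n = 2) of the collagen level in siControl. Fibrillar chains made up 63.4% ± 1.23 of it and basement membrane chains 28.3% ± 0.856. FACIT chains made up 4.10% ± 0.461, and the network chains 0.703% ± 0.00265. The level of Col3a1, the single chain of fibrillar type III collagen, was only 0.243 ± 0.0267 CPM per kilobase against 237 ± 0.832 for Col1a1.

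**Figure D1:**
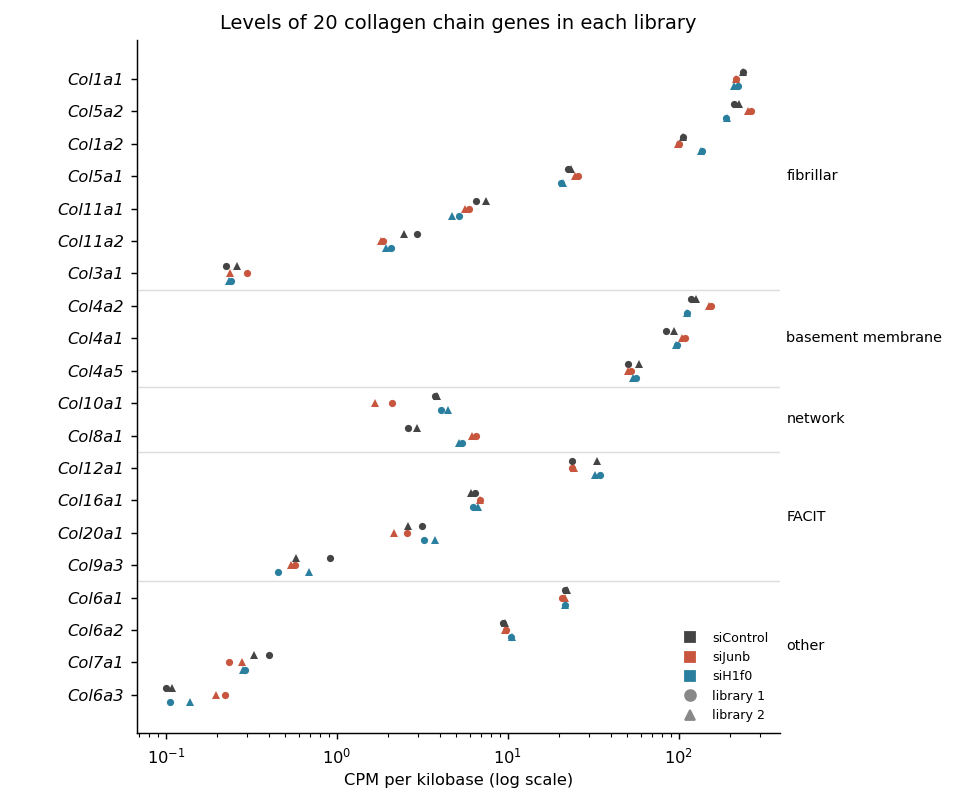
CPM per kilobase (log axis) of the 20 collagen chain genes at 1 CPM or more in all libraries, by collagen class; each point is 1 library, coloured by siRNA group. Levels span from 0.104 for Col6a3 to 237 for Col1a1 (siControl means), and the points of 1 gene lie close together beside that whole span. Genes at similar levels interleave, such as Col8a1 (2.62 to 6.51) and Col10a1 (1.67 to 4.49).

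The order of the leading chains by level in siControl was Col1a1 (237 ± 0.832 CPM per kilobase), Col5a2 (218 ± 11.9), Col4a2 (122 ± 6.33), Col1a2 (106 ± 0.794), Col4a1 (89.0 ± 6.75) and Col4a5 (54.4 ± 5.87). None of these neighbours overlapped in the siControl libraries. In siJunb the first pair changed places, with Col5a2 at 259 ± 6.87 and Col1a1 at 216 ± 1.35 CPM per kilobase. The 24 genes under the minimum were the fibrillar Col2a1, Col5a3, Col24a1 and Col27a1, the basement membrane chains Col4a3, Col4a4 and Col4a6, the network chain Col8a2, the FACIT chains Col9a1, Col9a2, Col14a1, Col19a1 and Col22a1, and Col6a4, Col6a5, Col6a6, Col13a1, Col15a1, Col17a1, Col18a1, Col23a1, Col25a1, Col26a1 and Col28a1 of other types. Apart from Col18a1, the highest value among them in any library was 0.896 CPM, of Col15a1. Col13a1 and Col19a1 had 0 counts in all 6 libraries, where the limit that a count of 0 allows (3 counts) is 0.0349 to 0.0616 CPM by library and covers counting error only. Just outside the minimum lay Col18a1, with 0.806 CPM in siH1f0 2 and 1.33 to 1.89 in the other 5 libraries. Just inside it lay Col6a3, with 1.08 to 2.39 CPM, and Col3a1, with 1.24 to 1.66 CPM.

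With the siRNA against Junb, 6 of the 20 collagen genes were higher than in siControl and 2 were lower, at a Benjamini-Hochberg adjusted p under 0.05 in edgeR's quasi-likelihood test over all genes. This is 40% of the 20, where 16.5% of all 13427 genes tested were called (8.63% higher and 7.82% lower) and 18.7% of the genes that also reached 1 CPM in every library. With the siRNA against H1f0, 2 were higher and 3 lower, or 25%, where 6.55% of all genes tested (2.27% higher and 4.27% lower) and 7.49% of those at 1 CPM were called. Between siH1f0 and siJunb 4 were higher and 5 lower, or 45%, where 25.9% of all genes (12.2% higher and 13.8% lower) and 29.6% of those at 1 CPM were called. The median log2 fold change of the 20 was -0.03 for siJunb, -0.02 for siH1f0 and -0.03 between them, beside 0.00 for all genes tested in each comparison. The called genes thus lay on both sides of a centre near 0, and the median absolute log2 change was 0.24, 0.19 and 0.25 beside 0.14, 0.11 and 0.16 over all genes tested. The 3 comparisons share libraries in pairs, so their values are set side by side and not counted as separate evidence.

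How many calls there were depended on each single library. Without siJunb 1 or siJunb 2, the comparison of siJunb with siControl called 2 and 3 of the 20 collagen genes, and 2.69% and 2.56% of all genes tested. Without siH1f0 1 or siH1f0 2, the comparison of siH1f0 with siControl called 1 and 1, and 0.843% and 0.940% of all genes. Without siControl 1 or siControl 2 more were called, 13 and 12 for siJunb and 10 and 14 for siH1f0, where 33.6%, 40.2%, 21.0% and 35.9% of all genes were called. For siH1f0 the 5 calls also became 3 without siJunb 1 or siJunb 2, where 2.44% and 2.46% of all genes were called. Between siH1f0 and siJunb the 9 calls became fewer without any of the siJunb or siH1f0 libraries, and more without either siControl library. The share of all genes called moved the same way. Leaving out a siControl library left the spread to be estimated from the siJunb and siH1f0 pairs, which lay closer together. That every collagen call made with all 6 libraries held there is therefore no check of the calls. Under the alternatives run, including leaving out each library, the calls of Col8a1 and Col10a1 against siControl in siJunb and of Col8a1 in siH1f0 held, and so did 5 calls between siH1f0 and siJunb (Col5a2, Col5a1, Col1a2, Col4a2 and Col10a1).

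**Figure D2:**
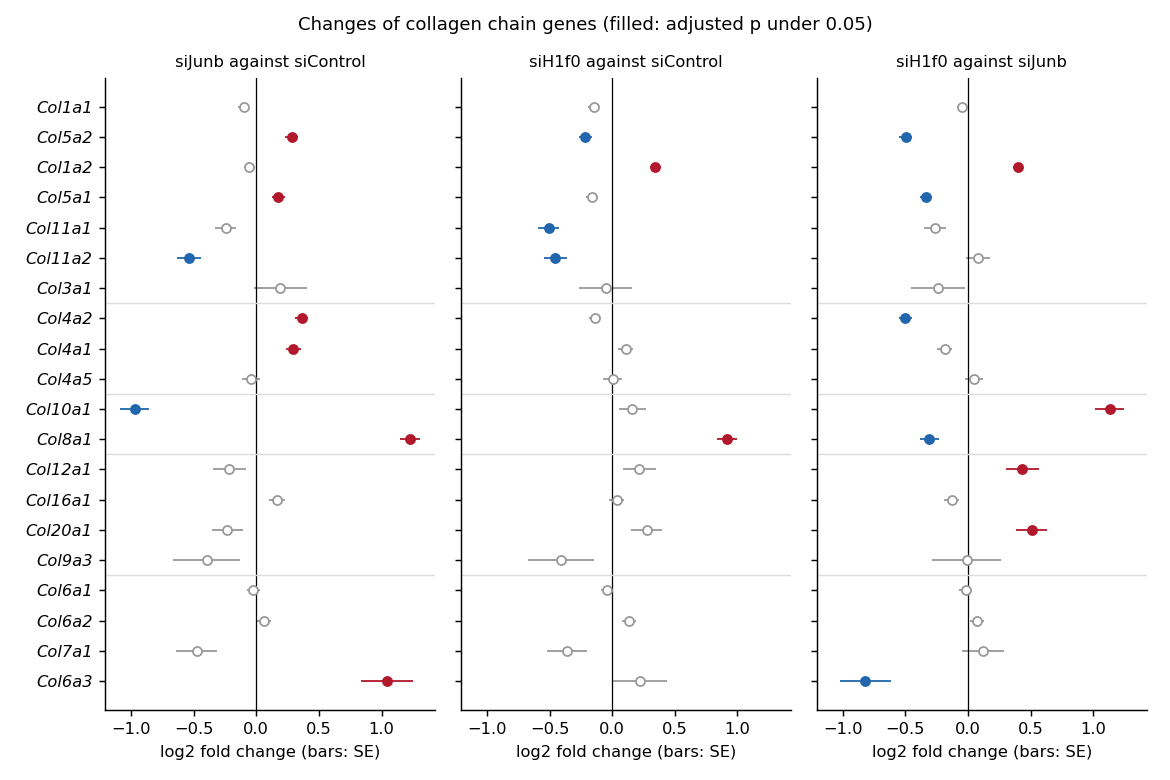
Log2 fold changes with standard errors of the 20 collagen chain genes in the 3 comparisons, by class from fibrillar at the top to the remaining types at the bottom; filled points passed the adjusted p of 0.05, red higher and blue lower. Col8a1 lies right of 0 with both siRNAs, Col10a1 lies left of 0 for siJunb and right of 0 for siH1f0 against siJunb, and Col1a1 lies close to 0 in all 3.

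Among the fibrillar chains, those of types I, V and XI did not move together. In siJunb 2 of the 7 were higher (Col5a2 and Col5a1) and 1 lower (Col11a2), and in siH1f0 1 was higher (Col1a2) and 3 lower (Col5a2, Col11a1 and Col11a2). The shares called among all genes tested were 16.5% and 6.55%. Col1a1 (chr11:94936224-94953042), which encodes the alpha 1 chain of type I collagen, stood at 1410.4 and 1403 CPM in siControl, 1287 and 1276 in siJunb and 1314 and 1254 in siH1f0. Both siRNA groups were below siControl without overlap, but neither difference passed the test (log2 -0.10 ± 0.04, adjusted p = 0.158 for siJunb, and -0.15 ± 0.04, adjusted p = 0.0848 for siH1f0). Col1a2 (chr6:4505618-4541543), the partner chain in the type I heterotrimer, stood at 549.6 and 555 CPM in siControl, 523 and 515 in siJunb and 717 and 699 in siH1f0. The siH1f0 libraries were the highest and did not overlap the others. Col1a2 rose 1.27-fold with siH1f0 against siControl (log2 0.34 ± 0.04, adjusted p = 0.00292) and was 1.32-fold higher than in siJunb (0.40 ± 0.04, adjusted p = 0.000395). Against siControl the call was lost without siH1f0 1 (adjusted p = 0.0864) or siH1f0 2 (0.0570).

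Per kilobase, Col1a1 stood at 2.26 and 2.22 times Col1a2 in siControl, 2.17 and 2.18 times in siJunb, and 1.61 and 1.58 times in siH1f0. In the common type I trimer a pair of alpha 1 chains is wound with a single alpha 2 chain. Both siH1f0 libraries had a lower ratio than the other 4 libraries. The ratio compares genes within a library and does not depend on the scaling between libraries, and it was not tested.

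Type V chains are built into type I fibres, and Col5a2 (chr1:45374331-45503282) was the second most abundant collagen transcript per kilobase in siControl. It stood at 1386 and 1497 CPM in siControl, 1742 and 1678 in siJunb and 1240.2 and 1268 in siH1f0. The 3 groups did not overlap, with siJunb highest and siH1f0 lowest. The change was 1.22-fold higher in siJunb (log2 0.28 ± 0.05, adjusted p = 0.00977) and 1.16-fold lower in siH1f0 (-0.22 ± 0.05, adjusted p = 0.0477), and siH1f0 was 1.41-fold below siJunb (-0.50 ± 0.05, adjusted p = 0.000360). The rise in siJunb was not called without siJunb 1 (adjusted p = 0.128) or siJunb 2 (0.0795). The lower value in siH1f0 was not called without siH1f0 1 (0.349), siH1f0 2 (0.257), siJunb 1 (0.131) or siJunb 2 (0.130), nor when only the 4 libraries compared were fitted (0.139).

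Col5a1 (chr2:27886381-28039510), the other main type V chain, had the same order at a lower level. It stood at 188 and 197 CPM in siControl, 216 and 209 in siJunb and 172 and 176 in siH1f0. It was 1.13-fold higher in siJunb (log2 0.18 ± 0.05, adjusted p = 0.0453), a call that was lost without either siJunb library (0.309 and 0.186), without either siH1f0 library (0.126 and 0.125) with total-count scaling (0.0816), with a mean of at least 5 CPM (0.0548) and when only the 4 libraries compared were fitted (0.122). In siH1f0 it did not pass against siControl (-0.16 ± 0.05, adjusted p = 0.101) and was 1.26-fold below siJunb (-0.34 ± 0.05, adjusted p = 0.00191). Per kilobase Col5a2 stood at 9.38 and 9.64 times Col5a1 in siControl, 10.3 and 10.2 times in siJunb, and 9.14 and 9.17 times in siH1f0.

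Of the chains of type XI, the fibre-nucleating collagen best known from cartilage, Col11a2 fell in both siRNA groups and Col11a1 in siH1f0. Col11a2 (chr17:34038919-34066684) stood at 19.5 and 16.3 CPM in siControl, 12.2 and 11.9 in siJunb and 13.7 and 12.8 in siH1f0. All 4 siRNA libraries were below both siControl libraries. Col11a2 fell 1.45-fold in siJunb (log2 -0.54 ± 0.09, adjusted p = 0.00734) and 1.37-fold in siH1f0 (-0.45 ± 0.09, adjusted p = 0.0253), and the direct difference between them did not pass (0.08 ± 0.10, adjusted p = 0.576). The siJunb call was lost without siJunb 1 (0.0709) or siJunb 2 (0.0828), and the siH1f0 call without siH1f0 1 (0.163), siH1f0 2 (0.234) or either siJunb library (0.0684 and 0.0684), or with only the 4 libraries compared (0.0718). Col11a1 (chr3:114030479-114220756) stood at 49.9 and 57.7 CPM in siControl, 45.4 and 43.1 in siJunb and 40.1 and 36.3 in siH1f0. It was lowest in siH1f0, where it fell 1.42-fold (-0.51 ± 0.09, adjusted p = 0.0109), a call lost without siH1f0 1 (0.0641) or siH1f0 2 (0.134). In siJunb its log2 change of -0.25 ± 0.08 did not pass (adjusted p = 0.0831). Of the cartilage markers, Sox9 was at 6.02 and 6.09 CPM in siControl, 6.45 and 7.29 in siJunb and 8.61 and 7.51 in siH1f0, and was not called. Comp, a cartilage matrix gene, was at 0.268 and 0.273 CPM in siControl, 0.235 and 0.267 in siJunb and 0.0842 and 0.0760 in siH1f0, and was called lower in siH1f0 than in siJunb (log2 -1.67 ± 0.53, adjusted p = 0.0479) but not against siControl (-1.74 ± 0.50, adjusted p = 0.0769). The part of these markers in the type XI values was not tested.

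**Figure D3:**
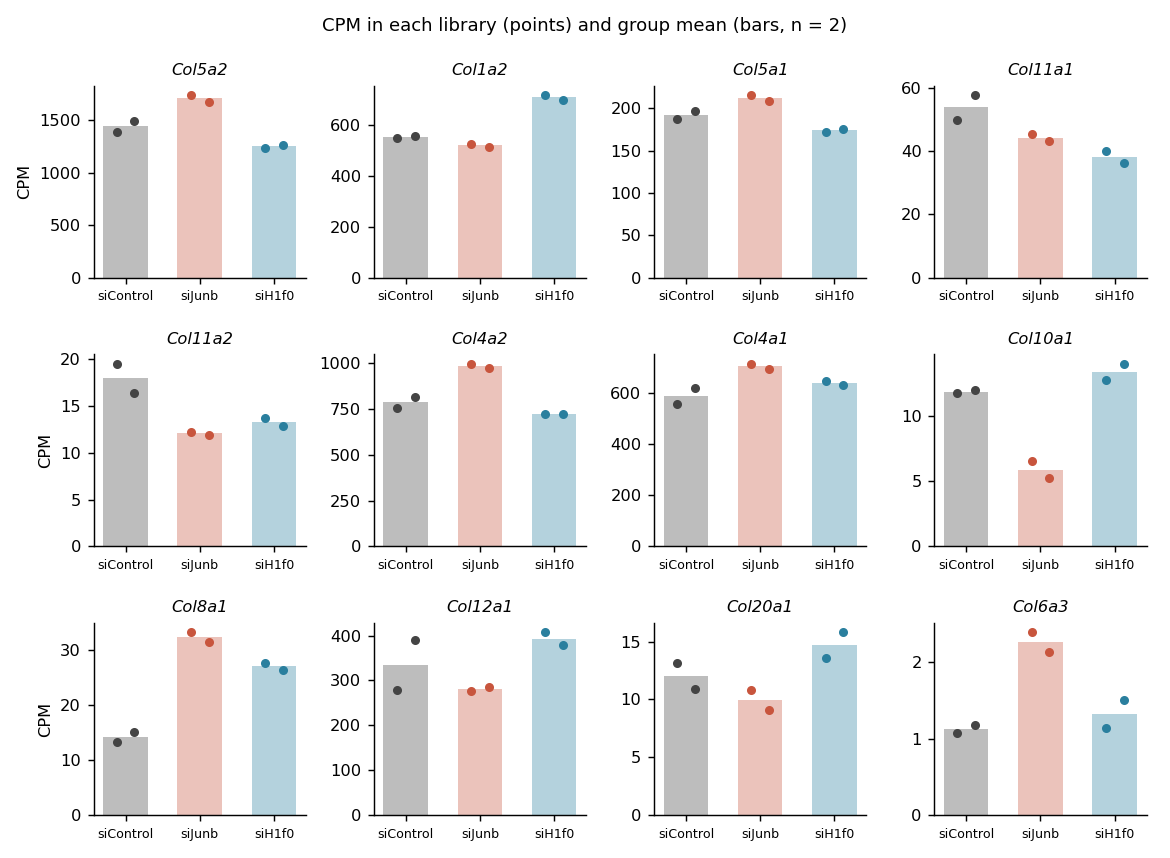
CPM of the 12 collagen chain genes called in at least 1 comparison; points are libraries and bars are group means (n = 2), with each vertical axis starting at 0. Col8a1 is lowest in siControl, Col10a1 and Col20a1 are lowest in siJunb, and the siControl points of Col12a1 lie as far apart as the other groups' means.

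Type IV collagen was represented by Col4a1 and Col4a2, the chains of the common heterotrimer of most basement membranes, and by Col4a5, a chain of the more restricted trimers. Of these 3, 2 were higher in siJunb, and 0 were called in siH1f0 in edgeR (1 at an unadjusted p under 0.05). Over all genes tested the called shares were 16.5% and 6.55%, and 3060 of 13427 had an unadjusted p under 0.05 in siH1f0. Col4a2 (chr8:11312805-11449287) stood at 756 and 814 CPM in siControl, 997 and 974 in siJunb and 722 and 720.5 in siH1f0. The siJunb libraries were the highest, and siH1f0 lay just under siControl. Col4a2 rose 1.29-fold in siJunb (log2 0.36 ± 0.05, adjusted p = 0.00298), which became 0.0603 without siJunb 1, and was 1.41-fold lower in siH1f0 than in siJunb (-0.50 ± 0.05, adjusted p = 0.000300). Against siControl its change in siH1f0 did not pass (-0.14 ± 0.05, adjusted p = 0.159).

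Col4a1 (chr8:11198423-11312889) stood at 558 and 622 CPM in siControl, 717 and 695 in siJunb and 649 and 634 in siH1f0. Both siRNA groups were above siControl without overlap, and siJunb was the higher. Col4a1 rose 1.23-fold in siJunb (log2 0.29 ± 0.06, adjusted p = 0.0141), a call lost without siJunb 1 (0.144) or siJunb 2 (0.0999). In siH1f0 the log2 change of 0.11 ± 0.06 did not pass (adjusted p = 0.337), and neither did the direct difference between siH1f0 and siJunb (-0.19 ± 0.06, adjusted p = 0.0508). Col4a5 did not pass in any comparison and ranged from 326 to 380 CPM. Per kilobase the Col4a2 level was 1.39 and 1.35 times that of Col4a1 in siControl, 1.43 and 1.44 times in siJunb, and 1.14 and 1.17 times in siH1f0. The 2 type IV chains therefore kept a similar proportion in siJunb, where both rose, and lay closer together in siH1f0. Their summed endothelial and epithelial marker levels, given above, were near 0 in every library.

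**Figure D4:**
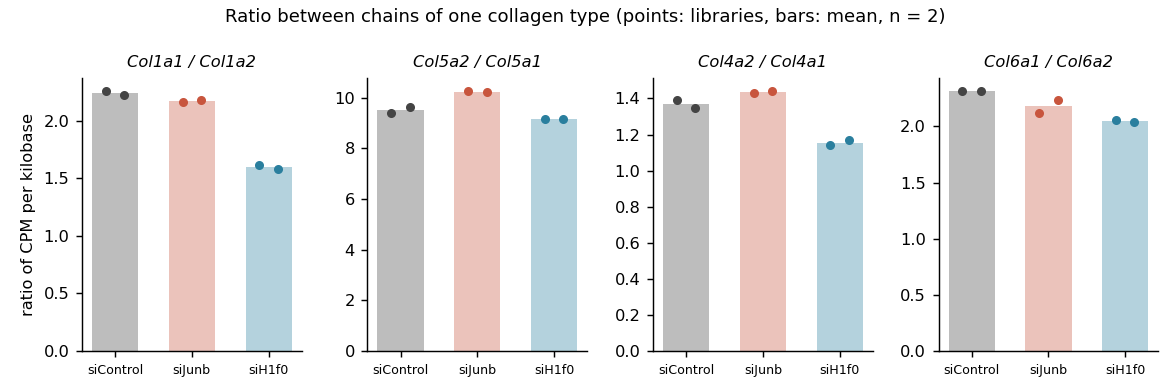
Ratio of CPM per kilobase between chains of one collagen type; points are libraries, bars are group means (n = 2), and axes start at 0. All plotted ratios (Col1a1 to Col1a2, Col5a2 to Col5a1, Col4a2 to Col4a1 and Col6a1 to Col6a2) are lowest in siH1f0, with both libraries below the other 4.

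Col4a1 and Col4a2 lie head to head on chromosome 8 and are transcribed in opposite directions from one promoter region. In the RefSeq promoter table for GRCm38.p6 (250 bases before to 50 after each start), their windows share 78 bases at chr8:11312777-11312854, and their starts at 11312826 (Col4a1, minus strand) and 11312805 (Col4a2, plus strand) are 21 bases apart. In the exon models searched the genes overlap by 22 exon bases, 0.295% of Col4a1 and 0.332% of Col4a2, while the gene spans given above overlap further. The annotation used for the counting is not given, so the stretch where reads could be counted for either gene is not known. The Col4a2 window holds a CCAAT box (the letters CCAAT, or ATTGG on the other strand, a common promoter element) 32 bases before its start, and the Col4a1 window a separate one 145 bases before its own. Neither lies whole within the shared bases. The stretch with the Col4a2 box is shown as an example, with the box in capitals. It lies at chr8:11312761-11312790 on the plus strand, from 44 to 15 bases before the Col4a2 start.
Col4a2 promoter: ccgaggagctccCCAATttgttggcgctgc
The other collagen genes within 50 kb of each other were Col3a1 and Col5a2 on chromosome 1 (24625 bases apart), Col4a5 and Col4a6 on chromosome X (1275), Col4a3 and Col4a4 on chromosome 1, Col9a1 and Col19a1 on chromosome 1, and Col6a4, Col6a5 and Col6a6 on chromosome 9. Only the first of these pairs had both genes at 1 CPM in every library: Col3a1 was not called in any comparison, and its neighbour Col5a2 was called in all 3.

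Since Junb is a subunit of AP-1, the promoter windows were searched on both strands for its 7-base site TGAGTCA, for the related cAMP-response site TGACGTCA, and for CCAAT; the letters of one search do not contain those of another. Windows were found for 35 of the 44 genes (38 promoters), and not for Col1a1, Col2a1, Col4a3, Col5a2, Col9a3, Col12a1, Col14a1, Col22a1 and Col26a1, which were not searched. TGAGTCA was in 1 of the 38 (2.63%), beside 5.20% of all 32851 promoters in the table. TGACGTCA was in 1 (2.63%, beside 1.79%), and CCAAT in 13 (34.2%, beside 37.4%). The only collagen promoter searched that holds TGAGTCA was that of Col6a1, which was called in no comparison, and TGACGTCA was in that of Col24a1, which was below the minimum. A match is a description of these letters, and this window says nothing of sites elsewhere in a gene. 3 promoters are shown from 250 bases before to 30 after the annotated start, with matches in capitals. That of Col6a1 (chr10:76726015-76726294, minus strand) holds the AP-1 letters 90 bases before the start. That of Col1a2 (chr6:4505368-4505647, plus strand), the type I chain called in siH1f0, holds the CCAAT letters 109 bases before the start and again, on the other strand, at the start. That of Col8a1 (chr16:57754708-57754987, minus strand), the gene with the largest change in siJunb among the 20, holds no match.
Col6a1 promoter: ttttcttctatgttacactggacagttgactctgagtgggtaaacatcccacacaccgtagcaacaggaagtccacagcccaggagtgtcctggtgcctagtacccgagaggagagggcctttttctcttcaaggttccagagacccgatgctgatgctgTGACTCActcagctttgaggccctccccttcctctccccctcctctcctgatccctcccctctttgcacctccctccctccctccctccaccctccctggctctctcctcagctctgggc
Col1a2 promoter: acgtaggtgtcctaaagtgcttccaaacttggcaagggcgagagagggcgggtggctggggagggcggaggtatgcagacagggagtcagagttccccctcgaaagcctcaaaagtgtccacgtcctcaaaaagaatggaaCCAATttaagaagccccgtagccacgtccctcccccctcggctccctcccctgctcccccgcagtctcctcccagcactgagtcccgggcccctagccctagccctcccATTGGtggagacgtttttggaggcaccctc
Col8a1 promoter: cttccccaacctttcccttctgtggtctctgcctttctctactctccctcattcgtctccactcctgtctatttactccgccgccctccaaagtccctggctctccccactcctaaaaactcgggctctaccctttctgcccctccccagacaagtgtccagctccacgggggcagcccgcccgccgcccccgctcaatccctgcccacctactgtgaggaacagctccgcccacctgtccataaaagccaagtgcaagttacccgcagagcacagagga

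In each comparison the largest change among the 20 was that of a network-forming chain, Col8a1 against siControl and Col10a1 between the siRNAs. Col8a1 (chr16:57624256-57754737), a chain of type VIII collagen found in vessel walls, the eye and injured tissue, stood at 13.4 and 15.0 CPM in siControl, 33.3 and 31.4 in siJunb and 27.7 and 26.4 in siH1f0. All 4 siRNA libraries were well above both controls, and siJunb was the highest. Col8a1 rose 2.34-fold in siJunb (log2 1.23 ± 0.08, adjusted p = 9.28e-05) and 1.89-fold in siH1f0 (0.92 ± 0.08, adjusted p = 0.000447). The siH1f0 level was 1.24-fold below siJunb (-0.31 ± 0.08, adjusted p = 0.0190), a difference that was not called without siJunb 1 (0.155), siJunb 2 (0.0735), siH1f0 1 (0.0830) or siH1f0 2 (0.151). Its partner gene Col8a2 was at most 0.0349 CPM in any library.

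Col10a1 (chr10:34389981-34397085), whose type X collagen is known from the hypertrophic zone of growth plate cartilage, stood at 11.8 and 12.0 CPM in siControl, 6.54 and 5.24 in siJunb and 12.8 and 14.1 in siH1f0. It was low in siJunb alone. Col10a1 fell 1.96-fold in siJunb (log2 -0.97 ± 0.12, adjusted p = 0.00152), did not pass in siH1f0 (0.16 ± 0.11, adjusted p = 0.425) and was 2.19-fold higher in siH1f0 than in siJunb (1.13 ± 0.12, adjusted p = 0.000292). The Col10a1 gene overlaps Nt5dc1 on the opposite strand over 18 of its 3130 exon bases. Nt5dc1 was at 17.1 to 20.4 CPM and was not called in any comparison (adjusted p = 0.677 in siJunb). The strand setting of the counting is not given in the sources used here.

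Of the FACIT chains, 0 of 4 passed the test against siControl with either siRNA in edgeR (1 and 0 at an unadjusted p under 0.05). Among all genes tested, 16.5% were called in siJunb and 6.55% in siH1f0. At an unadjusted p under 0.05 they were 4263 and 3060 of 13427. In siH1f0 2 FACIT chains were higher than in siJunb, where 25.9% of all genes tested were called. Col12a1 (chr9:79598987-79721141), the FACIT of tendon and other dense connective tissue, stood at 279 and 389.8 CPM in siControl, 277 and 285 in siJunb and 407 and 379 in siH1f0. The siControl libraries spanned nearly the whole range, so the lower siControl library matched siJunb and the higher one siH1f0. Between siH1f0 and siJunb the log2 change was 0.43 ± 0.13 (1.35-fold, adjusted p = 0.0403), and it was not called with DESeq2 (0.112) or without siJunb 1 (0.192), siJunb 2 (0.162), siH1f0 1 (0.196) or siH1f0 2 (0.105). Col20a1 (chr2:180983323-181017545), a FACIT of little known function, stood at 13.1 and 10.9 CPM in siControl, 10.8 and 9.08 in siJunb and 13.6 and 15.8 in siH1f0. The siH1f0 libraries lay above all others. It was 1.42-fold higher in siH1f0 than in siJunb (0.51 ± 0.13, adjusted p = 0.0192), which was lost without siJunb 2 (0.151) or siH1f0 2 (0.151). Col16a1 (31.7 to 35.6 CPM) and Col9a3 (1.28 to 2.58 CPM) were not called. Of the 44 collagen genes 33 were tested, so some of those under the minimum could not be called. Among the tested ones under it, only Col14a1 (0.185 to 0.859 CPM, 9 to 51 counts) was called in any comparison. It was higher in siH1f0 than in siJunb (1.41 ± 0.37, adjusted p = 0.0228).

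Type VI collagen forms beaded microfibrils around cells from chains encoded by Col6a1, Col6a2 and Col6a3. Col6a1 was the steadiest of them, at 81.9 to 88.4 CPM in the 6 libraries, and Col6a2 lay at 34.9 to 39.4 CPM, neither called in any comparison. Per kilobase Col6a1 stood at 2.31 and 2.31 times Col6a2 in siControl, 2.12 and 2.23 times in siJunb, and 2.05 and 2.04 times in siH1f0. Col6a3 (chr1:90766860-90844001) was near the minimum, at 1.08 and 1.18 CPM in siControl, 2.39 and 2.14 in siJunb and 1.15 and 1.51 in siH1f0. The siJunb libraries were the highest. Col6a3 rose 2.06-fold in siJunb (log2 1.04 ± 0.20, adjusted p = 0.0113), lost without siJunb 1 (0.113) or siJunb 2 (0.0674). It was 1.77-fold lower in siH1f0 than in siJunb (-0.82 ± 0.20, adjusted p = 0.0190), lost without siJunb 1 (0.138), siJunb 2 (0.0688) or siH1f0 1 (0.141). Per kilobase Col6a1 stood 217-fold and 204-fold above Col6a3 in siControl, 93.3-fold and 109-fold in siJunb, and 204-fold and 155-fold in siH1f0, so the alpha 3 transcript was scarce beside its partners in every library. Col7a1, of the anchoring fibrils of skin, was at 2.16 to 3.69 CPM and not called.

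The genes that modify, fold, export, cut, cross-link and bind collagen were listed as 47 genes, of which 39 were tested. In siJunb 5 were higher and 6 lower (28.2%, beside 16.5% of all genes tested), in siH1f0 2 were higher and 2 lower (10.3%, beside 6.55%), and between siH1f0 and siJunb 4 were higher and 5 lower (23.1%, beside 25.9%). The median log2 change was 0.03 in siJunb, -0.01 in siH1f0 and -0.01 between them. At an unadjusted p under 0.05, 17 of the 39 passed in siJunb and 16 in siH1f0, beside 4263 and 3060 of all 13427 genes tested. For fits that leave out a library, the share of all genes at that unadjusted threshold is not given. The count in siJunb became 2 without siJunb 1, 0 without siJunb 2 (edgeR; 14 genes at an unadjusted p under 0.05), 6 without siH1f0 1 and 6 without siH1f0 2, where 2.69%, 2.56%, 8.01% and 8.12% of all genes were called. It became 15 and 19 without siControl 1 and siControl 2, where 33.6% and 40.2% of all genes were called. The count in siH1f0 became 0 without siH1f0 1 or siH1f0 2 (edgeR; 7 and 10 genes at an unadjusted p under 0.05), where 0.843% and 0.940% of all genes were called, and 14 and 19 without siControl 1 and siControl 2, where 21.0% and 35.9% were.

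Serpinh1, which encodes the collagen-specific chaperone HSP47 of the endoplasmic reticulum, stood at 1244 and 1200.5 CPM in siControl, 1059 and 1036 in siJunb and 1278 and 1279.5 in siH1f0. It was lowest in both siJunb libraries. Serpinh1 fell by 0.19 ± 0.04 on the log2 scale in siJunb (adjusted p = 0.0189) and was 0.24 ± 0.04 higher in siH1f0 than in siJunb (adjusted p = 0.00399). The first call was lost when any of the siJunb or siH1f0 libraries was left out or only the 4 libraries compared were fitted (adjusted p up to 0.216), and the second when any of the siJunb or siH1f0 libraries was left out (up to 0.0816). Among the other listed genes whose products act in the cell, Plod3, a lysyl hydroxylase and glycosyltransferase of collagen, rose in siJunb (log2 0.26 ± 0.05, adjusted p = 0.00725). Plod3 was lower in siH1f0 than in siJunb (-0.41 ± 0.05, adjusted p = 0.000464). The ion channel gene Tmem38b, needed for collagen processing in bone, also rose in siJunb (0.48 ± 0.07, adjusted p = 0.00437). P3h4, a member of the prolyl 3-hydroxylase family, fell in siH1f0 (-0.45 ± 0.06, adjusted p = 0.00330), and Mia3, which loads collagen into export carriers, rose there (0.32 ± 0.05, adjusted p = 0.0120). Mia3 also rose in siJunb (0.21 ± 0.05, adjusted p = 0.0308), a call lost when any of the siJunb or siH1f0 libraries was left out or only the 4 libraries compared were fitted (up to 0.223), and the difference between the siRNAs did not pass (0.10 ± 0.05, adjusted p = 0.197). P4ha1, the catalytic subunit of prolyl 4-hydroxylase, was at 289 to 310 CPM and not called in any comparison.

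Outside the cell, the lysyl oxidases that cross-link collagen went in different directions. Lox stood at 125 and 148 CPM in siControl, 170.5 and 162 in siJunb and 116 and 115 in siH1f0. The groups did not overlap, with the same order as for Col5a2 and Col5a1. Lox rose in siJunb (log2 0.32 ± 0.08, adjusted p = 0.0262), lost when any of the siJunb or siH1f0 libraries was left out or only the 4 libraries compared were fitted (up to 0.196), did not pass in siH1f0 (-0.26 ± 0.08, adjusted p = 0.0927), and was lower in siH1f0 than in siJunb (-0.57 ± 0.08, adjusted p = 0.00122). Loxl1, a related oxidase linked to elastic fibres, fell in both siJunb (-0.41 ± 0.07, adjusted p = 0.00525) and siH1f0 (-0.35 ± 0.07, adjusted p = 0.0203). Loxl3 fell in siJunb (-0.31 ± 0.06, adjusted p = 0.0111) and did not pass in siH1f0 against siControl (0.16 ± 0.06, adjusted p = 0.159). It was higher in siH1f0 than in siJunb (0.47 ± 0.06, adjusted p = 0.000959). Bmp1, the protease that removes the C-terminal propeptide of fibrillar collagens, fell in siJunb (-0.24 ± 0.05, adjusted p = 0.0105). Mrc2, an uptake receptor for collagen, rose in siH1f0 (0.29 ± 0.04, adjusted p = 0.00712) and was higher there than in siJunb (0.30 ± 0.04, adjusted p = 0.00172). Ddr2, a fibrillar collagen receptor with tyrosine kinase activity, was at 357 and 427 CPM in siControl, 408 and 404 in siJunb and 473 and 455 in siH1f0, and was not called. Of the calls against siControl named in this group, all those in siJunb were lost without siJunb 2, and all but those of Tmem38b and Loxl1 also without siJunb 1. The calls in siH1f0 were lost without either siH1f0 library, and that of Mia3 also without either siJunb library or with only the 4 libraries compared. The differences of Plod3, Lox, Loxl3 and Mrc2 between siH1f0 and siJunb held under every alternative run.

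**Figure D5:**
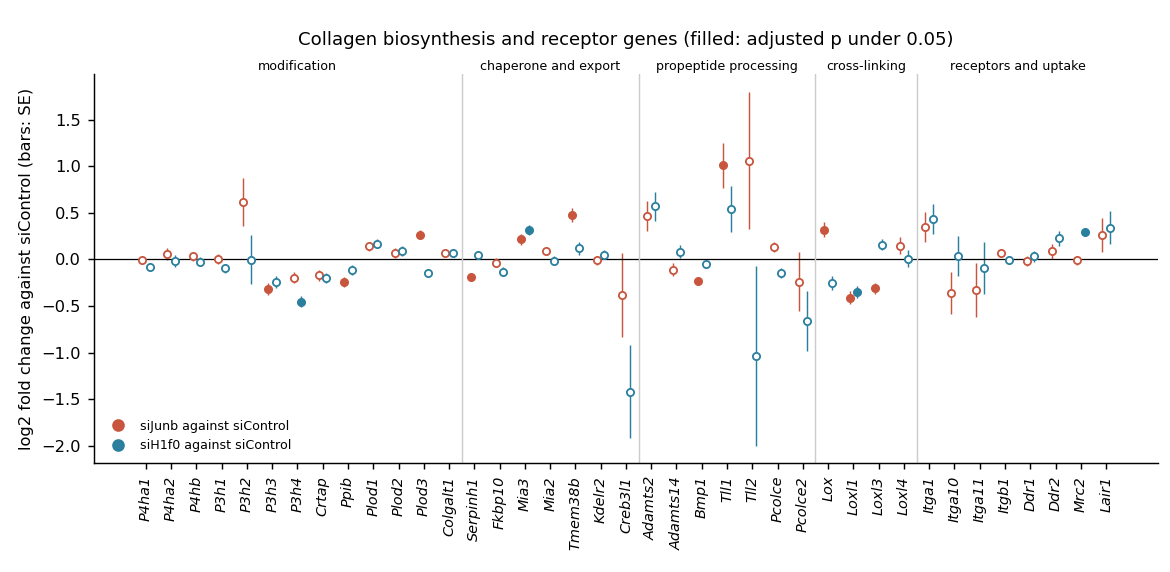
Log2 fold changes against siControl with standard errors of 39 tested genes of collagen modification, export, processing, cross-linking and receptors; filled points passed the adjusted p of 0.05. Filled points lie on both sides of 0 for siJunb (5 higher and 6 lower), and fewer are filled for siH1f0 (2 and 2).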

How the data were processed

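Poly(A) RNA libraries, 2 for each of 3 siRNA groups, were taken from a deposited table of raw counts per gene symbol with a gene length column. Per the submitters' processing notes, HISAT2, Subread and featureCounts were used with mm10; versions, annotation release, strand setting and the treatment of multi-mapping reads are not given in the sources. Groups come from the sample labels.

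The counts were fitted with edgeR 4.0.16 (R 4.3.3): TMM scaling (factors 0.979 to 1.02), the filterByExpr filter (13427 genes), and the quasi-likelihood test on all 6 libraries by group (3 residual degrees of freedom). P-values were adjusted by Benjamini-Hochberg over all genes tested. With 2 libraries a group, the smallest two-sided exact permutation p is 0.333; the fit borrows its spread from the whole set of genes. CPM use library totals, fold changes use TMM, and CPM per kilobase use the deposited length. The method was tested on simulated data drawn with the same spread per gene in all groups. That setting does not cover a siControl pair lying further apart than the other pairs.

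The members, the class, pathway and marker lists and the tests were chosen with earlier results of these data known. Values in every library are given for collagen genes at 1 CPM in all libraries that were called in any comparison and for the 5 highest per kilobase; of the pathway list, at most 4 called genes per comparison with the smallest p are named, plus Serpinh1, P4ha1, Lox and Ddr2. Alternatives were other size factors (RLE, none), no count filter or a mean of 5 CPM, DESeq2 1.42.0, limma-voom (limma 3.58.1), only the 4 libraries compared, a replicate block, and leaving out each library. Where a group is left with 1 library, its spread is taken to equal that of the others. The main fit likewise takes a single spread per gene for all groups. The siControl pair lay further apart (median absolute log2 ratio 0.14 over the collagen genes) than the siJunb (0.05) and siH1f0 (0.05) pairs. The standard errors and p-values thus mix pairs of unlike spread. Markers of 9 cell types were checked; smooth muscle (3.45 to 4.71 CPM summed), leukocyte (1.18 to 2.09), adipocyte (3.29 to 4.22) and Schwann and neuronal markers (1.08 to 1.58) were low, and cardiomyocyte markers summed to 102 to 122 CPM, mostly Tnnt2.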

Additional observations from a re-analysis of the deposited data

How the results depend on the processing

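Across RLE size factors, total-count scaling, DESeq2 and limma-voom the counts of called collagen genes stayed at 8, 5 and 9 to 10 for siJunb, siH1f0 and their direct comparison. The genes called changed in part. With total-count scaling in edgeR, Col5a1 lost its call in siJunb (adjusted p = 0.0816) and Col11a1 gained one (0.0453). With DESeq2 the direct comparison called 3 higher and 7 lower, beside 4 and 5 in the main fit. Leaving out 1 library at a time gave 2 to 13, 1 to 14 and 5 to 12 collagen genes, and 0 to 19, 0 to 19 and 4 to 19 pathway genes. With no count filter, siH1f0 called 10 collagen and 11 pathway genes (10.8% of all genes). With only the 4 libraries compared, siH1f0 called 3 collagen genes (2.44% of all genes), siJunb 6 pathway genes (8.26%), and the direct comparison 21 of 39 pathway genes (48.6%). TMM-scaled CPM moved the summed collagen level to 6509 and 6351 in siJunb and 5784 and 5668 in siH1f0, from 6375, 6232, 5863 and 5761. The expression minimum left 21 genes at 0.5 CPM and 16 at 5 CPM. The cause of these changes was not tested.

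Replicate numbers pair the libraries by number only: deviations of same-numbered libraries correlated at 0.021, -0.117 and 0.0409. With a replicate block 7, 4 and 9 collagen genes and 10, 4 and 9 pathway genes were called, beside 12.5%, 4.1% and 21.7% of all genes. Col5a1 in siJunb (adjusted p = 0.0819) and Col5a2 in siH1f0 (0.0894) lost their calls under it.

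Log2 changes that turned direction were of genes not called in that comparison with all 6 libraries. With total-count scaling, between siH1f0 and siJunb, Col9a3 came to 0.038, Col6a1 to 0.031 and Col1a1 to 0.0026. In siH1f0 against siControl, Col4a5 came to -0.0022 with no filter and -0.0016 at a mean of 5 CPM. Leaving out single libraries gave ranges that crossed 0 for siJunb in Col12a1 (-0.45 to 0.049), Col4a5 (-0.16 to 0.074) and Col6a1 (-0.053 to 0.0079). They did for siH1f0 in Col12a1 (-0.013 to 0.49), Col4a5 (-0.11 to 0.12), Col3a1 (-0.17 to 0.065) and Col16a1 (-0.015 to 0.082), and between siH1f0 and siJunb in Col9a3 (-0.35 to 0.25), Col7a1 (-0.0093 to 0.24) and Col6a1 (-0.050 to 0.011). Without siControl 1 or siControl 2 Col4a5 in siH1f0 passed the threshold in opposite directions (adjusted p = 0.00749 and 0.00206).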
